A study of Mus musculus with 6 samples.

Results

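The genes described here are *Ccnb1ip1*, *Gm26782*, *Osgep*, *Pnp*, *Pnp2*, *Psmb5*, *Ppp1r3e*, and *Gm10032*, 8 genes of the mouse chromosome that carries *Ebf2*, and *Gm3375* and *Gm5503*, 2 processed pseudogenes on other chromosomes that are near-identical copies of *Psmb5* and *Osgep*. They are 10 of the 55491 genes in the deposited table, were looked up by symbol, and were selected on their values in the comparison described below. Their differences between genotypes are therefore given as a description. The fits covered all genes, the 10 included, but tests are read only for genes outside the 10. The label under which they were collected, steady on/off-like differences, held for part of them. Differences of more than 10-fold were seen for 4 of the 10 (*Ccnb1ip1*, *Gm3375*, *Gm5503*, and *Gm10032*), while 5 differed by less than 2-fold.

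RNA was sequenced from the inguinal white adipose tissue (IWAT) of male mice aged 4 weeks on regular chow, with 3 wild-type mice (*Ebf2+/+*) and 3 knock-in mice (*Ebf2E165X/+*) and 1 library per mouse. *Ebf2E165X/+* mice carry 1 copy of a nonsense allele of *Ebf2*, made by CRISPR/Cas9 in fertilized eggs, in every cell of the body. The labels give the strain as C57BL/6J, while the supplement of the study describes eggs from crosses of B6SJLF1 hybrid mice, whose other parental strain is SJL, and founders that were then bred to C57BL/6J. The number of such generations is not given in the sources used here. A nonsense allele and any DNA of the donor eggs that stayed linked to it pass to the same mice, and in this design the effects of the allele and of linked DNA on a gene of the same chromosome cannot be told apart.

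Genes that lie near each other on a chromosome are usually inherited together, so that mice chosen for an edited allele also share the chromosome segment around it. A processed pseudogene is an mRNA that was copied back into DNA and inserted at another place in the genome, without introns, and where it still resembles its parent, a short sequencing read can match both. Counting programs then divide such reads by estimates, so that counts of parents and near-identical copies are uncertain. Among the 10 genes are enzymes found in nearly all cells: *Pnp* encodes purine nucleoside phosphorylase, *Psmb5* a catalytic β subunit of the proteasome, and *Osgep* the catalytic subunit of the KEOPS complex, which modifies transfer RNAs. *Ppp1r3e* encodes a subunit that directs protein phosphatase 1 to glycogen, *Ccnb1ip1* a protein of meiotic crossing over also known as HEI10, and *Gm10032* and *Gm26782* are annotated as noncoding RNAs.

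Total counts were between 106820505 and 135039488 per library, and levels are given as CPM, that is, relative to a library size scaled by the TMM method. The 7 adipocyte markers were all detected, with *Lpl* the most abundant at a mean of 6037 CPM, and their summed level was 16418 ± 1349 CPM (SD, n = 3) in *Ebf2+/+* and 13247 ± 2992 CPM in *Ebf2E165X/+* IWAT. Skeletal muscle markers set 1 library apart. Their summed level was 38143 CPM in the third *Ebf2E165X/+* library and 648 to 6688 CPM in the other 5. Summed markers of macrophages were at 545 ± 105 and 581 ± 23.3 CPM, of B cells at 354 ± 89.6 and 449 ± 30.2 CPM, and of endothelial cells at 976 ± 50.3 and 872 ± 115 CPM in the 2 genotypes, and 0 of these 12 markers had an unadjusted *P* under 0.05 from edgeR. The summed B cell markers did not overlap between genotypes, at 251 to 410 CPM and 420 to 480 CPM, and all 4 had higher values in *Ebf2E165X/+* IWAT, where all 7 adipocyte markers had lower values. Their part in the results below was not tested. Without the third *Ebf2E165X/+* library, the log2 fold changes of the 10 genes moved by at most 0.15. *Ebf2* itself (chr14:67233292-67430918 of GRCm38, plus strand) was at 38.3, 41.3, and 37.2 CPM in *Ebf2+/+* and 22.8, 22.9, and 21.1 CPM in *Ebf2E165X/+* libraries. Its log2 fold change was −0.81 (SE 0.076), with an adjusted *P* of 0.0596 from edgeR and 1.23e-13 from DESeq2, and the groups did not overlap. A level of the whole gene does not show the edited base, and in bulk tissue fewer cells of a type and less RNA per cell cannot be told apart.

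The sequences of *Psmb5* and *Gm3375* are shown first because they bear on how far the counts of the parent and its copy can be separated. *Psmb5* lies at chr14:54614119-54618022 on the minus strand and has up to 3 exons, and *Gm3375* (ENSMUSG00000107470) lies at chr7:3181093-3181888 on the plus strand as a single exon (GENCODE M21, GRCm38). The copy matched bases 32 to 826 of the 899 bases of the *Psmb5* transcript with an identity of 98.9%. It had 8 substitutions, all inside the 792 bases of coding sequence, and 1 additional base, which the alignment places after coding base 262. Counted from 1 at the start of the *Psmb5* coding sequence, with the *Psmb5* base first, the substitutions were G6A, G106A, C297T, C306T, T387A, C417T, T465C, and C660A, and 7 of the 8 lie at the last position of a codon. Of 747 windows of 50 bases along the alignment, 420 (56.2%) were identical in both genes, and the last 73 bases of the *Psmb5* transcript have no counterpart in the copy. The sources differ on whether the libraries covered whole transcripts or their 3′ ends, and these windows describe the reads only where reads came from the whole alignment. The stretch below covers coding bases 263 to 502 of *Psmb5* and the aligned bases of the copy (chr7:3181356-3181595, plus strand), 5′ to 3′, with the 5 bases that differ in capitals.
Psmb5: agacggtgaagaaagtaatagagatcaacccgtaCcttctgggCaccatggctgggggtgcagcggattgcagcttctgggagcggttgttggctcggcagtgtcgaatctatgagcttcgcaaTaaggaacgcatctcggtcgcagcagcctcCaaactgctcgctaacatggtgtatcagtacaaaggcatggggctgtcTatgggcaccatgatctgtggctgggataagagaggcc
Gm3375: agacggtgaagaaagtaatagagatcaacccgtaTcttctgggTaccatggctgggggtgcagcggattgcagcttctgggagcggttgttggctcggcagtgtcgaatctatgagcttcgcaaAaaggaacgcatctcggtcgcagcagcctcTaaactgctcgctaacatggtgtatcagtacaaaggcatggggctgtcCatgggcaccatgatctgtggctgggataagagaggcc

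*Psmb5* was lower in *Ebf2E165X/+* IWAT, where its copy was higher. *Psmb5* had 8756, 6153, and 6902 counts in the 3 wild-type libraries, against 4738, 5806, and 6655 in the knock-in libraries. In CPM the groups did not overlap, but the lowest *Ebf2+/+* library, at 55.7, and the highest *Ebf2E165X/+* library, at 52.0, were close to each other. Means were 62.3 ± 9.25 and 46.5 ± 5.51 CPM (SD, n = 3 each), with a log2 fold change of −0.42 (SE 0.13). *Gm3375* had 28, 12, and 21 counts in *Ebf2+/+* and 757, 845, and 1015 counts in *Ebf2E165X/+* libraries, so that every knock-in library had many times the counts of every wild-type library. Its level was 0.172 ± 0.0597 CPM against 7.08 ± 0.742 CPM, a ratio of 41.1 between the means and a log2 fold change of 5.35 (SE 0.30).

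Set against the counts of *Psmb5* and *Gm3375* together, the copy took 0.319%, 0.195%, and 0.303% in wild-type libraries and 13.8%, 12.7%, and 13.2% in knock-in libraries. The 95% Wilson intervals, which cover counting error only, ran from 0.111% to 0.463% over the wild-type libraries and from 11.9% to 14.7% over the knock-in libraries. All knock-in shares lay far above all wild-type shares. Added together, the pair was at 62.5 ± 9.30 CPM in *Ebf2+/+* and 53.5 ± 6.20 CPM in *Ebf2E165X/+* IWAT, and the groups overlapped. The mean of *Gm3375* was 6.91 CPM higher while that of *Psmb5* was 15.9 CPM lower in knock-in mice, so that the excess of the copy came to 43.6% of the deficit of the parent. With single mice left out, this proportion ran from 34.8% to 65.6%, the latter without the first *Ebf2+/+* mouse. Another annotated copy, *Psmb5-ps*, with an identity of 92.0% to *Psmb5* over 810 bases, had 1 count in a single *Ebf2E165X/+* library and 0 in the other 5. Whether the reads counted for *Gm3375* came from that locus or from *Psmb5* was not tested, since reads were not analysed here.

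**Figure D1:**
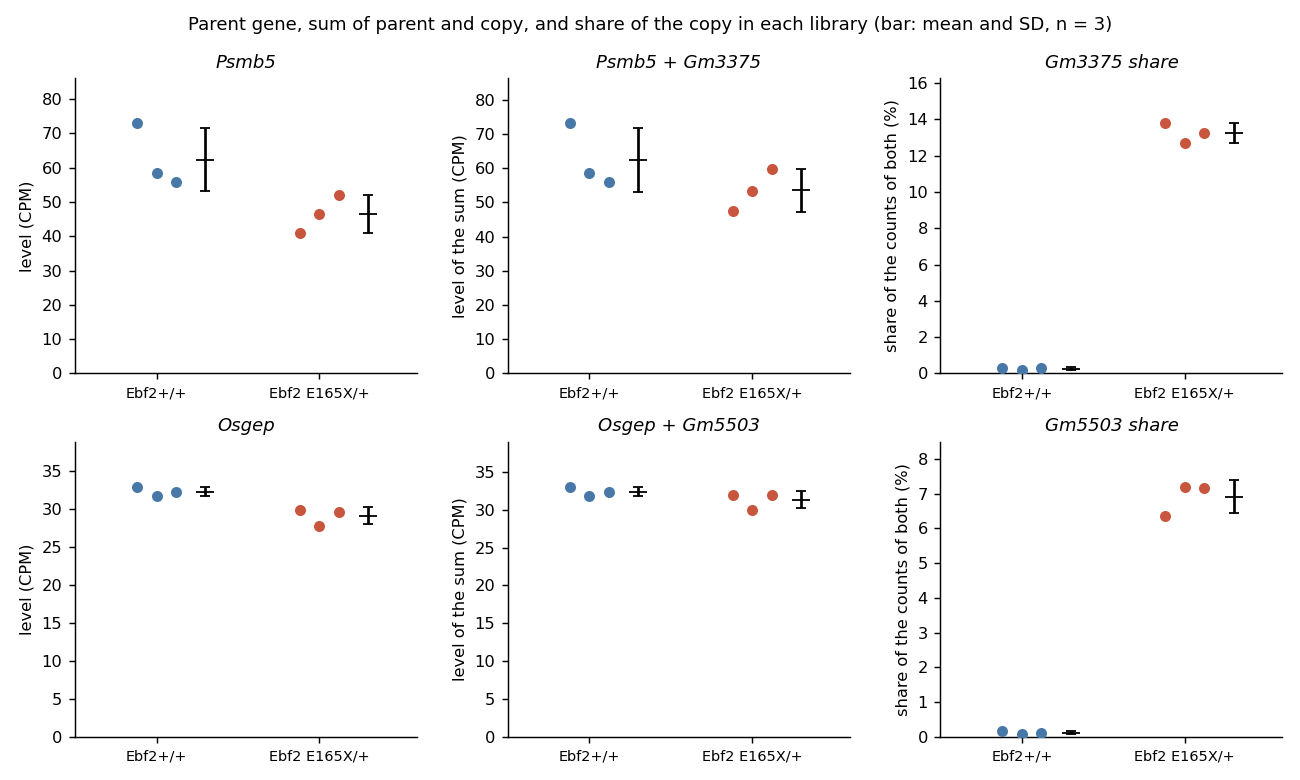
Level of the parent gene (left, CPM), level of parent and copy added together (middle, CPM), and share of the copy in the counts of both (right, %) for *Psmb5* with *Gm3375* (top) and *Osgep* with *Gm5503* (bottom). Points are libraries and bars the mean and SD of 3 mice. The share of the copy was near 0 in all *Ebf2+/+* libraries and between 12.7% and 13.8% (*Gm3375*) or 6.36% and 7.20% (*Gm5503*) in *Ebf2E165X/+* libraries, while the sums overlapped.

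The same arrangement was seen for *Osgep*, on chromosome 14 at 50906478 to 50924893 (minus strand), and its copy. *Gm5503* (ENSMUSG00000117730) is a single-exon processed pseudogene of 558 bases on chromosome 18, and it was 97.8% identical to bases 53 to 610 of the 1308 bases of an *Osgep* transcript. Its 12 mismatches left 196 of 509 windows of 50 bases (38.5%) identical, and the last 698 bases of the *Osgep* transcript have no counterpart in the copy. The counts of *Gm5503* were 7, 3, and 4 in *Ebf2+/+* and 235, 270, and 294 in *Ebf2E165X/+* libraries. Its level was 0.0397 ± 0.0162 CPM against 2.16 ± 0.132 CPM (SD, n = 3), a ratio of 54.5 and a log2 fold change of 5.73 (SE 0.33).

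For *Osgep*, levels were 33.0, 31.7, and 32.4 CPM in *Ebf2+/+* and 29.9, 27.9, and 29.7 CPM in *Ebf2E165X/+* libraries. Although the groups did not overlap, this was the smallest difference of the 10 genes, with a log2 fold change of −0.15 (SE 0.067). *Gm5503* took 0.176%, 0.0896%, and 0.0997% of the counts of the pair in *Ebf2+/+* libraries and 6.36%, 7.20%, and 7.17% in *Ebf2E165X/+* libraries, with Wilson intervals from 5.62% to 8.07% over the latter. The pair together was at 32.4 ± 0.637 CPM in *Ebf2+/+* and 31.3 ± 1.12 CPM in *Ebf2E165X/+* IWAT, and the groups overlapped. The excess of the copy, 2.12 CPM, was 66.4% of the deficit of *Osgep*, 3.20 CPM, and 59.3% to 83.2% with single mice left out. The source of the reads counted for *Gm5503* was likewise not tested.

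Pseudogenes with a close protein-coding parent were surveyed for the same behavior. In this survey and below, a gene is called steady where the gap between the genotypes, in log2 CPM, is at least as wide as the larger of the ranges within a genotype. It was applied to genes with at least 10 counts in the mean library. Of 1117 such pseudogenes with a parent of at least 90% identity, 3 had a parent between 50 and 60 Mb of chromosome 14, where *Osgep* and *Psmb5* lie. Of these 3, *Gm3375* and *Gm5503* had been selected for their differences, so nothing can be read from setting them against the other pseudogenes. *Gm5503* also reached 10 counts in the mean library only through the knock-in libraries. The third was *Gm12696*, a copy of *Hnrnpc*. This gene, named after its values were seen, had 21, 24, and 25 counts in *Ebf2+/+* and 16, 15, and 22 in *Ebf2E165X/+* libraries, was not steady, and had a log2 fold change of −0.49 (SE 0.31, edgeR adjusted *P* = 0.783). None of the 33 pseudogenes with a parent elsewhere on chromosome 14 was steady. Among the 1081 with a parent on another chromosome, 13 were steady, of which 1 was higher in *Ebf2E165X/+* mice, with a log2 fold change of 0.76. Fold changes among these 1081 ran from −9.63 to 7.56 on the log2 scale, and those above 0.76 were in genes that were not steady. The survey did not cover every pseudogene. *Gm15746*, a processed pseudogene of chromosome 16 that was not among the 1117, was steady and higher in *Ebf2E165X/+* mice (log2 fold change 2.36, SE 0.42).

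*Ccnb1ip1* (chr14:50789248-50807732, minus strand, up to 4 exons) was nearly absent in *Ebf2+/+* IWAT. It had 1, 0, and 0 counts there and 32, 43, and 52 counts in *Ebf2E165X/+* libraries. In knock-in mice the level was 0.342 ± 0.0647 CPM (SD, n = 3), which is low in absolute terms. With 127 counts over the knock-in libraries against 1 over the wild-type libraries, the ratio of the levels was 120, with an exact 95% interval of 21.2 to 4792 that covers counting error only. The fitted log2 fold change of 6.46 depends on the count added to avoid a logarithm of 0 and on the only wild-type count. Over the settings tried it moved between 5.83, from log2 CPM with a prior count of 0.5, and 8.36. The latter was without the first *Ebf2+/+* mouse, whose library held that count. In the annotation *Rpph1*, the RNA of ribonuclease P, overlaps the start of *Ccnb1ip1*, in the direction of transcription, on the same strand, with 284 shared bases. *Rpph1* had 95, 66, and 746 counts in *Ebf2+/+* and 33, 36, and 4 in *Ebf2E165X/+* libraries, the opposite direction (log2 fold change −3.62 with an SE of 1.10, edgeR adjusted *P* = 0.783, DESeq2 adjusted *P* = 0.168). The high value was that of the third *Ebf2+/+* library alone. Markers of germ cells, in which *Ccnb1ip1* acts, were at a summed level of 4.66 ± 1.34 CPM in *Ebf2+/+* and 3.22 ± 0.594 CPM in *Ebf2E165X/+* IWAT, with *Sycp3* the most abundant at 3.09 CPM. Of the 4 markers, *Sycp3* (log2 fold change −0.70, SE 0.28) and *Ddx4* (−0.60, SE 0.30) were at lower values in *Ebf2E165X/+* mice, and *Dazl* (0.38, SE 0.40) and *Tex14* (0.33, SE 0.27) at higher ones. Only *Sycp3* had an unadjusted *P* under 0.05 from edgeR, and none was called. Their part in the counts of *Ccnb1ip1* was not tested.

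*Gm10032* is the only one of the 10 genes close to *Ebf2*. It is annotated as an intergenic noncoding RNA of 2 exons at chr14:66784480-66793758 (plus strand), and 0.44 Mb separate it from the start of *Ebf2*. The gene had 187, 273, and 194 counts in *Ebf2+/+* libraries and 4, 24, and 12 in *Ebf2E165X/+* libraries. All knock-in libraries lay far below the wild-type libraries, although they also differed among themselves, from 0.0346 to 0.192 CPM. The level was 1.90 ± 0.594 CPM in *Ebf2+/+* and 0.107 ± 0.0796 CPM in *Ebf2E165X/+* mice, a ratio of 17.8 between the wild-type and the knock-in mean and a log2 fold change of −4.14 (SE 0.58). With single mice left out, this value ran from −3.73 to −4.86, the latter without the second *Ebf2E165X/+* mouse. Of its nearest neighbors with at least 10 counts, *Dpysl2*, which encodes a cytoskeletal regulator of axons, was at 27.5 and 27.2 CPM on average and did not pass the test (log2 fold change −0.016, adjusted *P* = 0.970 from edgeR). On the other side, *Adra1a*, the α1A-adrenergic receptor, had 2236, 2356, and 2731 counts in *Ebf2+/+* and 845, 1888, and 1205 in *Ebf2E165X/+* libraries. The groups did not overlap, and the log2 fold change of −0.98 (SE 0.25) had an adjusted *P* of 0.783 with edgeR and of 0.00732 with DESeq2.

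**Figure D2:**
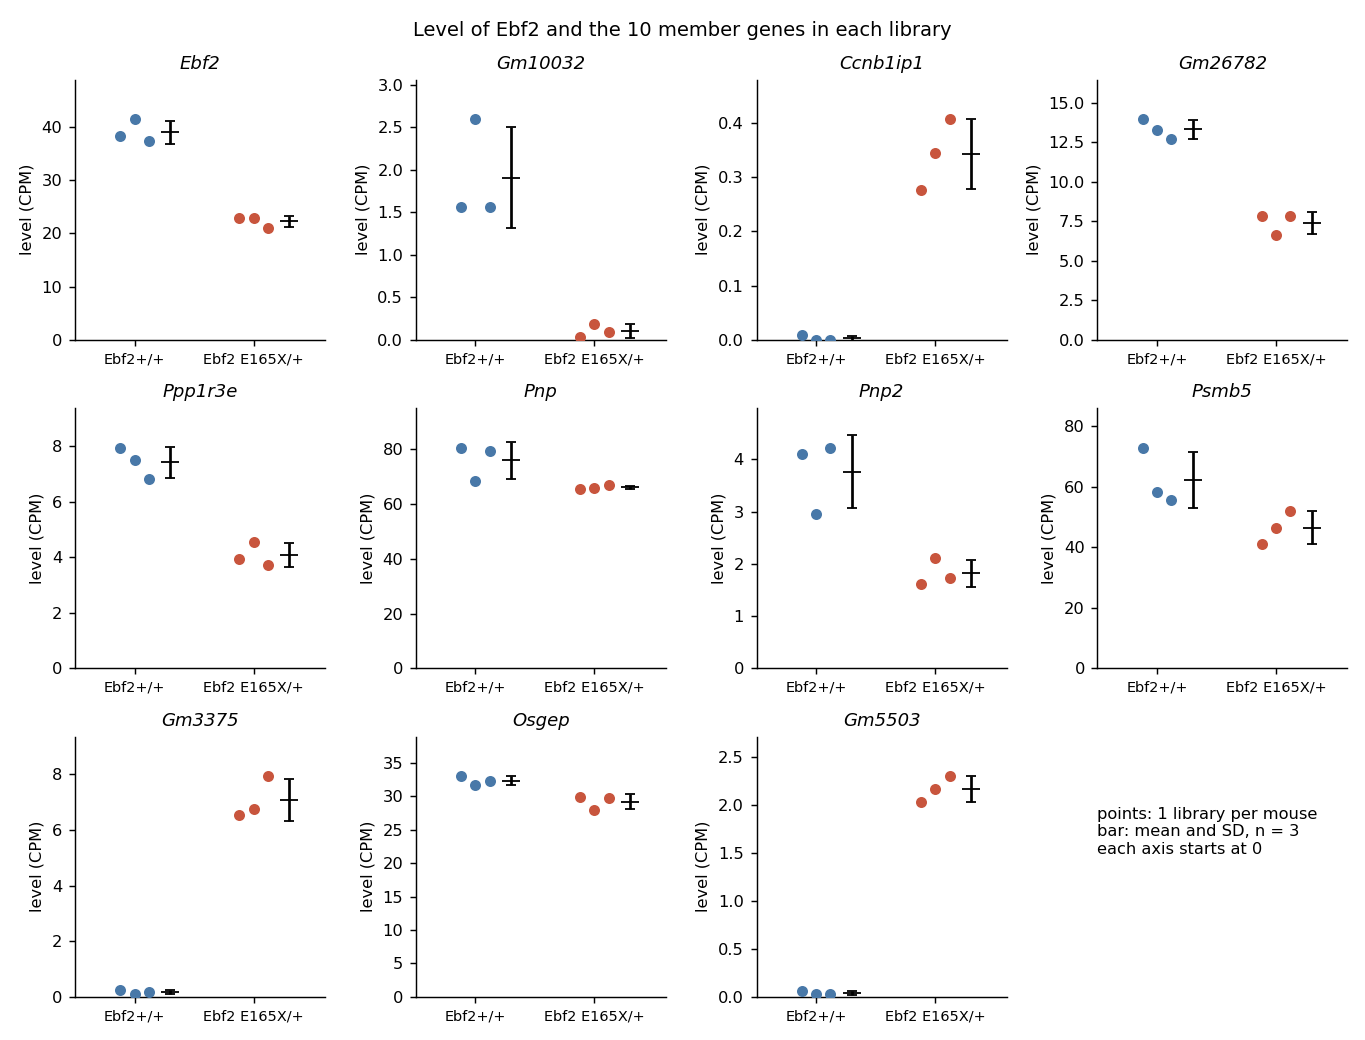
Level in CPM of *Ebf2* and the 10 selected genes in each of the 6 libraries, with a separate linear axis from 0 for each gene. Points are libraries and bars the mean and SD of 3 mice. *Ccnb1ip1*, *Gm3375*, and *Gm5503* were near 0 in *Ebf2+/+* and *Gm10032* near 0 in *Ebf2E165X/+* mice, whereas *Pnp*, *Psmb5*, and *Osgep* were well above 0 in both, at lower levels in *Ebf2E165X/+* mice.

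*Gm26782* and *Ppp1r3e* were both about 45% lower in *Ebf2E165X/+* IWAT, with little spread among mice. *Gm26782* (chr14:50870324-50880603, plus strand) is an antisense RNA that overlaps 237 bases of *Tep1*, a component of telomerase and vault particles, on the opposite strand. Its counts were 1676, 1402, and 1574 in *Ebf2+/+* and 905, 825, and 1003 in *Ebf2E165X/+* libraries, or 13.3 ± 0.626 and 7.42 ± 0.704 CPM (SD, n = 3), a log2 fold change of −0.84 (SE 0.11). Whether the counting used strand is not given in the sources used here, so that reads of the shared bases could have gone to either gene. *Tep1* itself was at 65.3 CPM in *Ebf2+/+* and 60.9 CPM in *Ebf2E165X/+* IWAT (log2 fold change −0.10 with an SE of 0.093, edgeR adjusted *P* = 0.783), and its groups overlapped. *Ppp1r3e* (chr14:54872669-54877550, minus strand) had 953, 790, and 846 counts in *Ebf2+/+* and 455, 568, and 476 counts in *Ebf2E165X/+* libraries. Its level was 7.42 ± 0.557 against 4.07 ± 0.432 CPM, a log2 fold change of −0.87 (SE 0.14).

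*Pnp* and *Pnp2*, which lie on the plus strand of chromosome 14, encode enzymes that split purine nucleosides. In the annotation the whole of *Pnp2* (chr14:50955992-50964749, 8758 bases) lies within the span of *Pnp* (chr14:50931082-50965237) on the same strand. Another protein-coding gene of this strand, *Gm49342*, shares 18620 bases of its span with *Pnp* and 7145 with *Pnp2*, so that reads may be divided among the 3 genes by estimate. *Gm49342* had 4111, 2393, and 2984 counts in *Ebf2+/+* and 2580, 3625, and 2671 in *Ebf2E165X/+* libraries, with overlap (log2 fold change −0.17 with an SE of 0.19, edgeR adjusted *P* = 0.804). *Pnp* was at 80.6, 68.3, and 79.4 CPM in *Ebf2+/+* and 65.7, 66.0, and 66.9 CPM in *Ebf2E165X/+* libraries. The second wild-type library lay just above the knock-in libraries, and the log2 fold change was −0.20 (SE 0.081). *Pnp2* differed more, with 493, 312, and 523 counts in *Ebf2+/+* and 187, 264, and 222 counts in *Ebf2E165X/+* libraries and means of 3.76 ± 0.696 and 1.82 ± 0.260 CPM, a log2 fold change of −1.05 (SE 0.21). Of the counts of *Pnp* and *Pnp2*, *Pnp2* took 4.68 ± 0.468% in *Ebf2+/+* and 2.68 ± 0.376% in *Ebf2E165X/+* IWAT. A share of counts is not adjusted for gene length.

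The genotypes did not overlap for any of the 10 genes, but these were selected for that, and 13.1% of the 20834 genes with at least 10 counts in the mean library did not overlap either. By the stricter measure, 6 of the 10 were steady (*Gm5503*, *Ccnb1ip1*, *Gm3375*, *Gm26782*, *Ppp1r3e*, and *Gm10032*), against 1.07% of those 20834 genes. The gap was 6.53 times the larger range for *Gm5503*, the widest, and 1.44 times for *Gm10032*, just inside the limit of 1, while *Pnp2* (0.95) and *Osgep* (0.84) were just outside it. *Psmb5* (0.26) and *Pnp* (0.13) were far from it. At an adjusted *P* under 0.05 and a fold change above 1.5, edgeR called 3 genes (0.00918% of 32664), 2 of them among the 10, and DESeq2 called 98 (0.300%), 6 of them among the 10. Nothing can be read from these counts, as the same values had chosen the genes.

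By position, 5 of the 8 genes on chromosome 14 (*Ccnb1ip1*, *Gm26782*, *Osgep*, *Pnp*, and *Pnp2*) lay within 176 kb of each other and 16.3 Mb from *Ebf2*. *Psmb5* and *Ppp1r3e* lay within 263 kb and 12.4 Mb from *Ebf2*. The genes nearest to each of the 10 on either side, with at least 10 counts, numbered 18, of which 14 were on chromosome 14. edgeR called none of the 18, although 2 of them (*Rpph1* and *Adra1a*) had an unadjusted *P* under 0.05, which 6.08% of all genes with at least 10 counts and 4.77% of all genes tested had, and DESeq2 called *Adra1a*. Their median absolute log2 fold change was 0.20, and 0.13 for the 14 on chromosome 14, where that of all genes with at least 10 counts was 0.13. Groups did not overlap for 4 of the 18, *Bcl2l2* and *4931414P19Rik* in addition to the 2 above. All 4 were among the 14 on chromosome 14, and 13.1% of all genes with at least 10 counts did not overlap.

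Values of most of these neighbors were small. *Apex1*, which encodes a DNA repair endonuclease and lies beside *Osgep*, was at 29.6 CPM in *Ebf2+/+* and 27.6 CPM in *Ebf2E165X/+* IWAT (log2 fold change −0.10, SE 0.11, adjusted *P* of 0.805 in edgeR), and *Pip4p1*, between *Osgep* and *Pnp*, at 43.3 and 43.1 CPM (log2 fold change −0.0069 with an SE of 0.074, edgeR adjusted *P* = 0.995). *Homez* and *Bcl2l2*, on either side of *Ppp1r3e*, had log2 fold changes of −0.10 (SE 0.13) and −0.050 (SE 0.062). *Cdh24*, beside *Psmb5*, had one of −0.033 (SE 0.16). *Klhl33* had the largest value of a protein-coding neighbor, 1.31 (SE 0.74, edgeR adjusted *P* = 0.783), which came from 6704 counts in the third *Ebf2E165X/+* library, the one with the most muscle marker RNA, against 787 to 1272 in the others. For *Gm3375* and *Gm5503*, none of the neighboring genes *AU018091*, *Nlrp12*, *Stard4*, and *Nrep* passed the test.

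**Figure D3:**
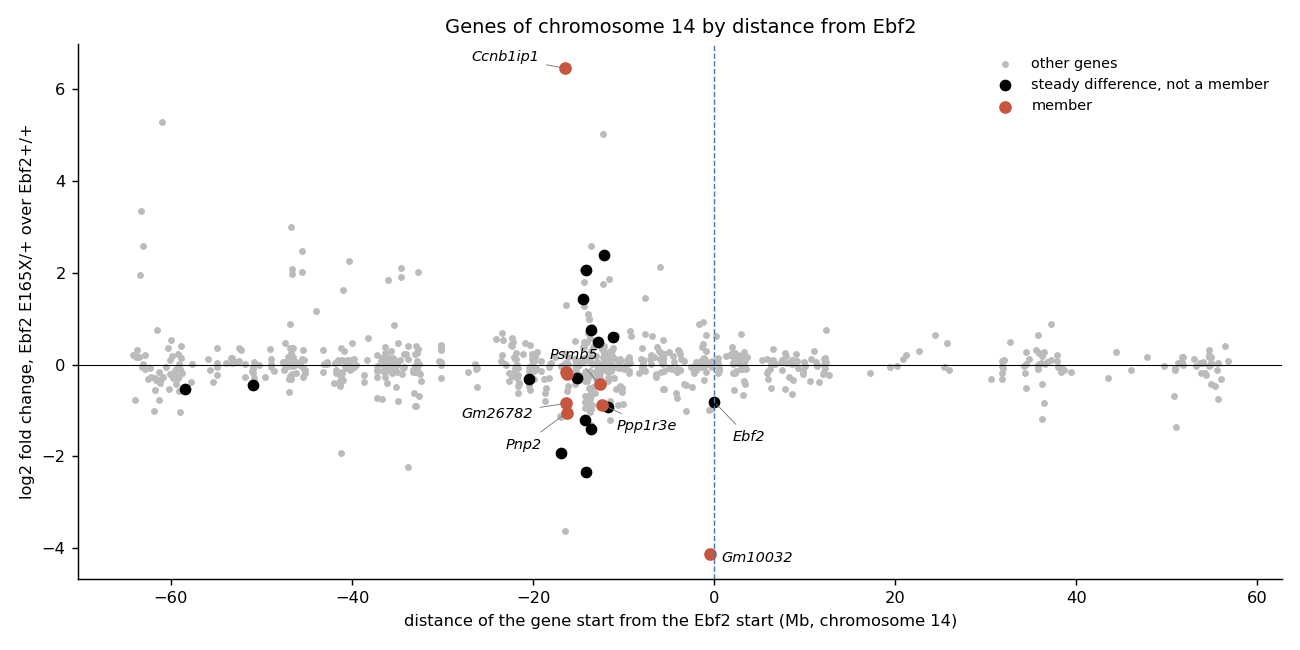
Log2 fold change (*Ebf2E165X/+* over *Ebf2+/+*) of genes on chromosome 14 with at least 10 counts in the mean library, against the distance of the gene's start from that of *Ebf2* (Mb). Red points are the 8 selected genes of this chromosome, black points other steady genes including *Ebf2*, and grey points all others. Steady genes between 10 and 20 Mb on one side of *Ebf2* changed in both directions and included selected genes and T cell receptor segments. Without these 2 kinds, 6 of 156 genes (3.85%) between 50 and 60 Mb were steady, beside 1.07% of all genes. The selected gene nearest to *Ebf2* was *Gm10032*.

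Steady genes were counted along the genome to see whether others lay beside the selected ones. This is a description, since the chromosome was part of how the genes were chosen. Chromosome 14 held 20 steady genes among 807 (2.48%), and the other chromosomes between 0.61% (chromosome 10) and 1.52% (chromosome 9). Without the selected genes, 16 steady genes among 799 were left on chromosome 14, and 10 among 742 (1.35%) when T cell receptor segments, described below, were left out as well, which lies within the range of the other chromosomes. In windows of 5 Mb, 12 of 130 genes (9.23%) were steady between 50 and 55 Mb, 3 of 90 between 55 and 60 Mb, 0 of 45 between 60 and 65 Mb, and 2 of 55 (*Gm10032* and *Ebf2*) between 65 and 70 Mb. Over the 138 windows of the genome with at least 50 genes, the median was 0.82%, and the highest value outside chromosome 14 was 5.77% (3 of 52 genes, on chromosome 6). The window from 50 to 55 Mb included 7 of the selected genes. Without them it held 9 steady genes among 123 (7.32%), and without T cell receptor segments as well 3 among 66 (4.55%), below the window of chromosome 6. On chromosome 14 outside 50 to 60 Mb, 5 of 587 genes (0.85%) were steady, a share close to that of the genome.

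Among the 15 steady genes between 50 and 60 Mb, 6 were variable segments of the T cell receptor α chain (*Trav7d-4*, *Trav7d-6*, *Trav16d-dv11*, *Trav6n-6*, *Trav14-2*, and *Trav3-3*). These and the other steady genes of chromosome 14 below were named after their values were seen. Such segments form a gene family whose members resemble each other to a degree not measured here, so that their counts may be uncertain. The 6 differed in both directions, from −2.35 (*Trav6n-6*) to 2.07 (*Trav16d-dv11*) on the log2 scale. *Trav6n-6* had 16, 11, and 23 counts in *Ebf2+/+* and 2, 4, and 4 in *Ebf2E165X/+* libraries, and *Trav16d-dv11* had 6, 6, and 2 against 19, 24, and 21. None of them was called. The 4 T cell markers were all detected, the most abundant being *Cd4* at 63.7 CPM. Their summed level was 143 to 190 CPM in *Ebf2+/+* and 186 to 213 CPM in *Ebf2E165X/+* libraries, with overlap, and none had an unadjusted *P* under 0.05. With all T cell receptor segments left out, 9 of 163 genes (5.52%) between 50 and 60 Mb were steady, and 6 of 156 (3.85%) without the selected genes as well.

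The steady genes of this region that were neither selected nor segments were *Olfr735*, *Hnrnpc*, *Slc7a7*, *Zfhx2os*, *A730061H03Rik*, and *Mcpt4*. *Hnrnpc*, which encodes an RNA-binding protein of the nucleus, had 17111, 15099, and 17861 counts in *Ebf2+/+* and 13191, 14909, and 15024 in *Ebf2E165X/+* libraries (log2 fold change −0.29 with an SE of 0.069, edgeR adjusted *P* = 0.742, DESeq2 adjusted *P* = 0.00594). *Slc7a7*, a cationic amino acid transporter subunit, had 1351, 1245, and 1582 against 2008, 2092, and 2079 counts (log2 fold change 0.49 with an SE of 0.093, edgeR adjusted *P* = 0.474, DESeq2 adjusted *P* = 0.000714). The mast cell protease gene *Mcpt4* had a log2 fold change of 0.60 (SE 0.087, edgeR adjusted *P* = 0.229, DESeq2 adjusted *P* = 9.46e-06). The antisense RNA *Zfhx2os* had 7, 3, and 6 against 32, 18, and 39 counts, and the olfactory receptor gene *Olfr735* had 19, 12, and 17 against 3, 5, and 5. These genes differed in both directions, as did the selected genes. Both groups were picked on their values, so nothing can be read from this likeness.

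Over all 1392 genes of chromosome 14 tested other than the selected ones, edgeR called 0, and the smallest adjusted *P* was that of *Ebf2*. DESeq2 called 5, which were *Ebf2*, *Adra1a*, *Fdft1*, *Mcpt4*, and *Myh6*, the last 3 named after their values were seen. An unadjusted *P* under 0.05 was found for 90 of the 1392 (6.47%), beside 4.77% of all genes tested. Between 50 and 60 Mb, 33 of 213 unselected genes with at least 10 counts (15.5%) had one, and 19 of 156 (12.2%) without T cell receptor segments, where 6.08% of all genes with at least 10 counts did. The cardiac myosin gene *Myh6* had 10, 23, and 23 counts in *Ebf2+/+* and 135, 53, and 1838 in *Ebf2E165X/+* libraries, highest in the library with the most muscle marker RNA.

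**Figure D4:**
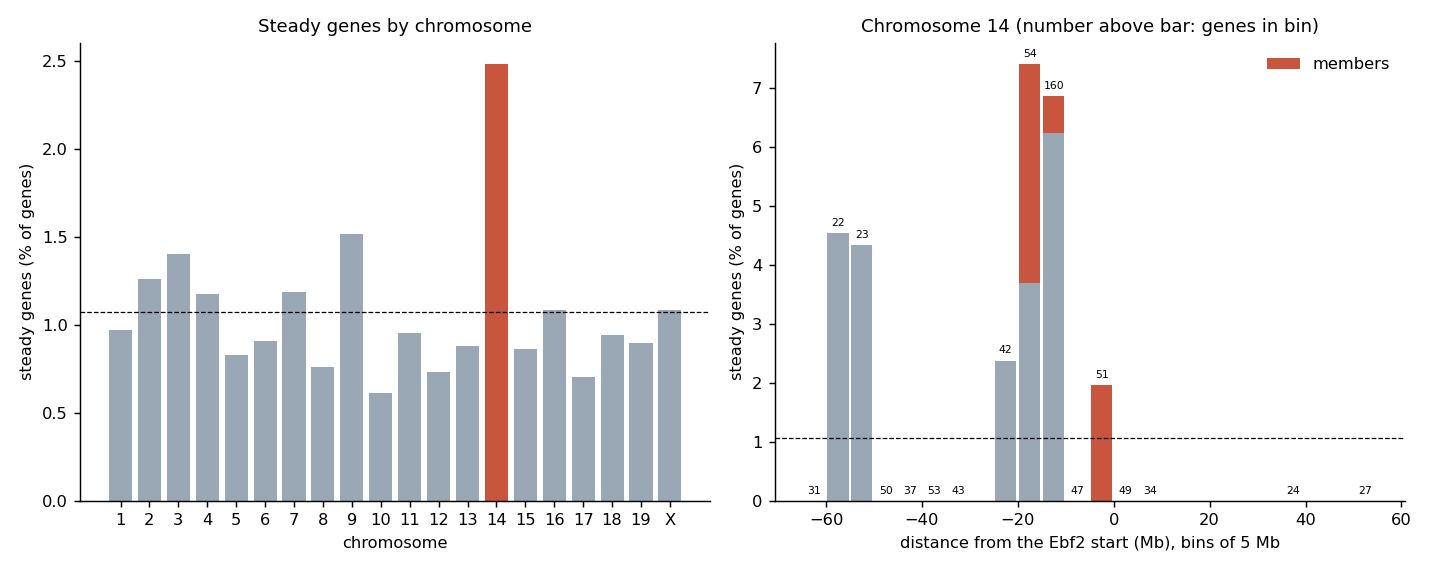
Share of steady genes (% of genes with at least 10 counts in the mean library) on each chromosome (left, chromosome 14 in red) and along chromosome 14 in bins of 5 Mb by distance from the start of *Ebf2* (right, selected genes in red, *Ebf2* left out). Numbers above bars are genes per bin, bins under 20 genes are not drawn, and the dashed line is the share over all genes, 1.07%. Chromosome 14 stood at 2.48%, and its bins from 20 to 10 Mb before *Ebf2* at 7.41% and 6.88%, selected genes and T cell receptor segments included.

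Other genes of the complexes and pathways of the selected genes were tested in 5 lists. They numbered 46, and edgeR called 0 of them, as did DESeq2. One of the 46, *Ppp1r3b*, had an unadjusted *P* under 0.05. The median log2 fold change was −0.043, beside 0.014 over all genes tested. Groups did not overlap for 3 of the 39 list genes with at least 10 counts (*Ppp1r3b*, *Aprt*, and *Msh5*), beside 13.1% of all genes with at least 10 counts.

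Of 10 other β subunits of the proteasome, 8 were lower and 2 higher in *Ebf2E165X/+* IWAT, with a median log2 fold change of −0.053, and 0 were called. *Psmb6* and *Psmb7*, which carry the other catalytic sites of the standard proteasome, had log2 fold changes of −0.083 (SE 0.092) and −0.083 (SE 0.13), and *Psmb8*, which replaces *Psmb5* in the immunoproteasome, one of −0.0067 (SE 0.11). The values of *Psmb5* are given above. Of the KEOPS complex and related genes, 6 were found by symbol, 3 lower and 3 higher, from −0.14 (*Lage3*, SE 0.11) to 0.084 (*Tprkb*, SE 0.084). In purine salvage, 7 of 12 genes were lower and 5 higher, and *Hprt*, which returns the bases released by *Pnp* to the nucleotide pool, was at 76.4 and 76.9 CPM (log2 fold change 0.010, SE 0.077). *Xdh*, which oxidizes such bases, was at 216 and 210 CPM (log2 fold change −0.043, SE 0.12).

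Glycogen subunits of protein phosphatase 1 varied more. *Ppp1r3b* had 10505, 3158, and 4355 counts in *Ebf2+/+* and 1894, 2671, and 2061 in *Ebf2E165X/+* libraries (log2 fold change −1.50 with an SE of 0.39, edgeR adjusted *P* = 0.783, DESeq2 adjusted *P* = 0.201), with the widest value in the first wild-type library. *Ppp1r3a* and *Ppp1r3c*, the former a muscle form, had 13656 and 20477 counts in the third *Ebf2E165X/+* library and no more than 1498 and 5264 in any other. That library had the most muscle marker RNA, whose part in these values was not tested. Among genes of meiotic crossing over, only 4 of 9 reached 10 counts, and none of these 4 was near absent in 1 genotype and present in the other. *Msh5* was at 1.22 and 1.53 CPM (log2 fold change 0.33 with an SE of 0.20, edgeR adjusted *P* = 0.783). *Rnf212*, which like *Ccnb1ip1* marks sites of crossing over, had at most 4 counts in any library.

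**Figure D5:**
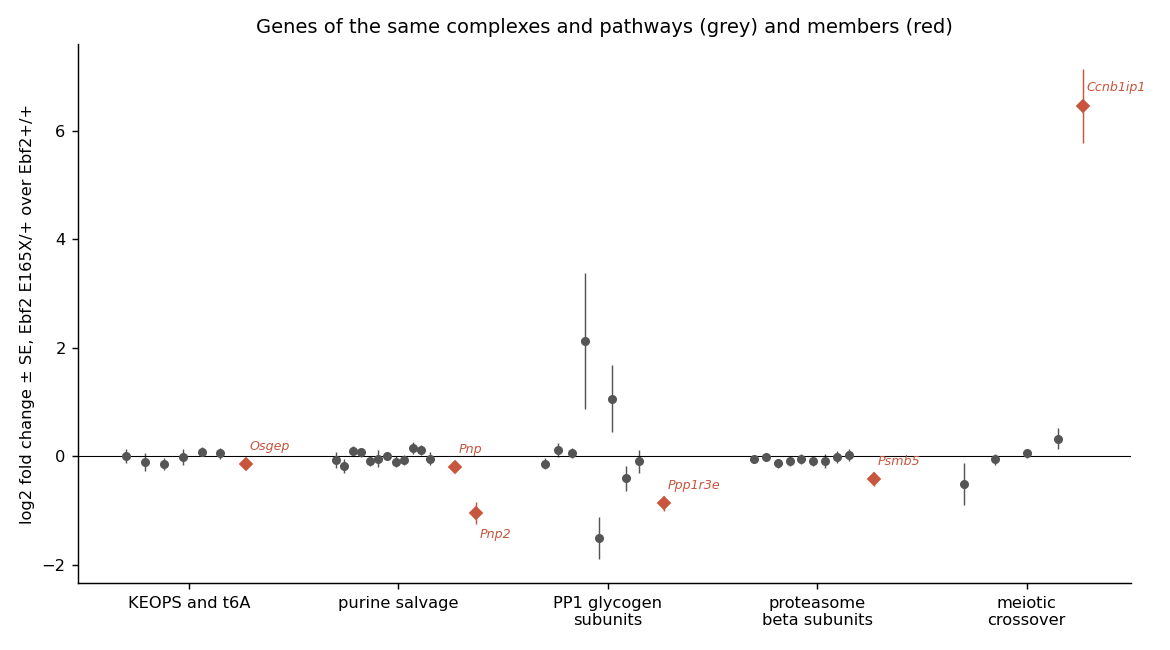
Log2 fold change with SE (*Ebf2E165X/+* over *Ebf2+/+*) of list genes with at least 10 counts in the mean library (grey circles) and of the selected gene or genes of the same pathway (red diamonds), for 5 lists. Grey points lay between −0.51 and 0.33 except 3 genes of the glycogen list with wide errors (*Ppp1r3a*, *Ppp1r3b*, and *Ppp1r3c*), and *Ccnb1ip1* stood highest at 6.46.

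Genes outside the 10 with the most similar pattern were ranked by the ratio of gap to range over the 6 libraries, among those with at least 10 counts and a log2 fold change of at least 1 in size. The first 10 were *Cidea*, *Olfr735*, *Gm15746*, *Ucp1*, *Pank1*, *Gm9885*, *Gm45112*, *Trav14-2*, *Trav6n-6*, and *Xist*, with ratios from 3.62 to 1.64, of which 3 lie on chromosome 14. All but *Gm15746* were lower in *Ebf2E165X/+* mice. *Cidea*, a lipid droplet protein of thermogenic adipocytes, had 9898, 10807, and 13117 counts in *Ebf2+/+* and 922, 1200, and 1693 in *Ebf2E165X/+* libraries (log2 fold change −3.24 with an SE of 0.20, edgeR adjusted *P* = 0.00462), and it was the only one of them called by edgeR. DESeq2 called 3 of them, *Ucp1* (log2 fold change −5.84, adjusted *P* = 4.87e-18) and *Pank1* (−1.12, adjusted *P* = 1.39e-13) in addition to *Cidea*. The 10 selected genes were left out of this ranking and had been chosen for such differences, so their own ratios are a description only. *Gm5503* had 7, 3, and 4 counts and *Ccnb1ip1* 1, 0, and 0 in *Ebf2+/+* libraries, where the prior count of 2 narrows the range. The ratios of *Gm5503* (6.53), *Ccnb1ip1* (6.09), and *Gm3375* (5.04) exceeded that of *Cidea*. On chromosome 14, so did those of *Ebf2* itself (4.60) and *Hnrnpc* (3.83), whose log2 fold changes were under the limit. *Gm15746*, a processed pseudogene with 5, 3, and 3 against 17, 26, and 18 counts, had a log2 fold change of 2.36 (SE 0.42, edgeR adjusted *P* = 0.396).

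RefSeq promoters (GRCm38.p6, 250 bases before to 50 after the RefSeq start) were at hand for 5 of the 10 genes, *Ccnb1ip1*, *Gm26782*, *Osgep*, *Pnp*, and *Psmb5*. For *Ccnb1ip1* (chr14:50795679-50795978) and *Pnp* (chr14:50944053-50944352), the window lies inside the gene span given above and not at its start. None of the 5 held CCCNNGGG, the core of the motif bound by EBF proteins, which reads the same on both strands and was in 13.7% of 32851 promoters. Its absence describes only these windows.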

How the data were processed

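IWAT RNA of 3 *Ebf2+/+* and 3 *Ebf2E165X/+* mice was sequenced, 1 library per mouse. The paper names QuantSeq 3′ mRNA libraries, whereas the labels name an NEB kit. The submitters' processing notes list cutadapt 4.8, FastQC 0.11.8, STAR 2.7.8a, RSEM 1.3.3, and MultiQC 1.20 with GRCm38, without roles. The authors deposited expected counts, estimates of fragments per gene without scaling to library size. None of the 332946 values had a fraction, so rounding was not needed. Descriptive columns of the table were used only for symbols.

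Genotypes were compared in R 4.3.3 with edgeR 4.0.16 (TMM, glmQLFit, glmQLFTest, genotype as the only term) over the 32664 genes that had a count in 1 library or more, with Benjamini-Hochberg adjustment over all of them. A gene was called at an adjusted *P* under 0.05 and a linear fold change above 1.5. Log2 CPM used a prior count of 2. With at least 106820505 counts per library, counting error was small except for genes of few counts, and the number of mice limited the precision. Tests cover the spread between these mice.

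Positions came from GENCODE M21 (GRCm38), which held 55227 of the 55491 identifiers, and copies were matched with blastn 2.17.0 (identity of 90% or more over 200 bases or more). Sequences are from GENCODE transcripts, and promoters are from RefSeq. Intervals and tables were made with Python 3.11.15, scipy 1.17.1, statsmodels 0.14.6, and pandas 2.3.3.

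The 10 genes and the lists were chosen with earlier results of these data known. Named genes were the 10, *Ebf2*, their nearest neighbors, the list genes, copies of *Psmb5* and *Osgep*, and the 10 genes of the most similar pattern, beside cell type markers. Others are said to have been named after their values were seen. Alternatives were DESeq2 1.42.0, limma-voom (limma 3.58.1), other size factors, filters, prior counts and windows, a replicate block, and each mouse left out.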

Additional observations from a re-analysis of the deposited data

How the results depend on the processing

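The number of genes called over all genes was 3 with edgeR, 98 with DESeq2, 92 with DESeq2 without independent filtering, and 1 with the copies added to their parents, and it ran from 1 to 11 with single mice left out (1 without the second *Ebf2+/+* mouse and 11 without the third *Ebf2E165X/+* mouse). A replicate block gave 2 calls (*Cidea* and *Ucp1*). Replicate numbers are no evidence of pairing, as same-numbered libraries deviated from their group means with correlations of 0.15, −0.28, and −0.16 over 18905 genes. Of unselected genes of chromosome 14, edgeR called 0, DESeq2 5, the replicate block 0, and the fits with single mice left out 0 to 1 (*Ebf2*, without the third *Ebf2E165X/+* mouse). The log2 fold changes of the 10 genes kept their sign in all 110 alternative values, which the choice of genes without overlap largely fixes, and 104 of these moved by less than the SD between mice, the exceptions being 5 values of *Ccnb1ip1* and 1 of *Gm5503*. No list gene was called in the alternatives run.

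Steady genes of chromosome 14 numbered 20, or 12 with at least 50 counts in the mean library and 6 with a gap of at least 2 times the range, limits under which 1.07%, 1.09%, and 0.211% of all genes were steady. Between 50 and 60 Mb there were 15, or 7 and 5 under these 2 limits and 9 without T cell receptor segments, and between 50 and 55 Mb 12, or 5, 5, and 6. With single mice left out, ranges are narrower by construction, and the counts ran from 29 to 50, 19 to 25, and 14 to 19. The share over the genome then ran from 2.49% to 4.36%, against 1.07% with all mice. All these counts of chromosome 14 include the selected genes, except where these are said to be left out. Without T cell receptor segments and the selected genes, 10 steady genes were left on chromosome 14, 6 between 50 and 60 Mb, and 3 between 50 and 55 Mb. Leaving out T cell receptor segments, alone or with the selected genes, was chosen after the data were seen. Counts under 30 in every library of the low group of *Ccnb1ip1*, *Gm3375*, *Gm5503*, and *Gm10032* limit how well their ratios are known.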
